A study of Mus musculus with 18 samples.

Results

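Chemokines are small secreted or membrane-held proteins that guide leukocytes, and their receptors are the matching surface proteins on those leukocytes. The family was taken here as every gene symbol beginning with Ccl, Cxcl, Cx3cl, Xcl, Ccr, Cxcr, Cx3cr or Xcr followed by a digit. That rule found 58 of the 24062 genes in the table, of which 39 are ligands and 19 are receptors. Of these, 49 passed the filter on low values and were tested (33 ligands and 16 receptors), and 35 had a mean of at least 5 CPM, reads per 1000000 reads of the library, in at least 1 group.

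In a healthy kidney few leukocytes are present and most inflammatory chemokines are near silent. After tubular injury, epithelial cells, endothelium, fibroblasts and resident macrophages release ligands, and the receptors arrive on the cells that follow them. CCR2 and CX3CR1 mark monocytes and macrophages, CXCR2 marks neutrophils, CXCR3 and CXCR6 mark T and NK cells, and CCR7 and XCR1 mark dendritic cells. Receptors span the membrane and signal through inhibitory G proteins, PI3-kinase gamma and Rac to move the cell. Ligands are induced mainly by TNF and IL-1 through NF-kappaB and by interferons.

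The study sequenced total RNA of C57Bl/6 mouse kidney cortex, in 6 groups of 3 libraries. Mice were Klf6fl/fl (floxed Klf6, the controls, here fl/fl) or Klf6PTKO (loss of Klf6 from the proximal tubule, here PTKO), and all mice were perfused with PBS before the cortex was taken. Each genotype received DMSO vehicle, aristolochic acid I (AAI, a plant toxin that damages proximal tubules) until week 3, or the same 3 weeks of AAI and then another 3 of remodeling, a time that the titles name 6 weeks. The labels give neither the Cre driver, the age or sex of the mice, the week of the DMSO kidneys nor whether the libraries of a group are separate animals, so the p-values reflect only how these libraries vary, which may be technical. The same DMSO libraries are the controls at both times.

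The libraries held 11722625 to 27213219 reads, with the shallowest being replicate 2 of fl/fl at 6 weeks. Klf6 itself did not separate the genotypes in whole cortex: it was 39.2 to 42.3 CPM in fl/fl and 40.2 to 56.7 CPM in PTKO under DMSO, and 256 to 308 against 229 to 309.7 CPM at 3 weeks of AAI. Klf6 therefore does not check the genotype labels, and PTKO below means the libraries labelled so. The 7 proximal tubule markers summed to 15292 to 18667 CPM under DMSO and to 2509.9 to 7342 CPM under AAI, so the labelled tissue's markers were present in every library. Some libraries stood apart for the chemokines. Replicate 2 of fl/fl at 6 weeks had the lowest value of its group for 39 of the 49 tested members, and replicate 3 of PTKO at 6 weeks for 41. Adipocyte markers summed to 389 CPM in replicate 2 of PTKO at 6 weeks and 92.8 CPM in replicate 2 of PTKO under DMSO, against 24.6 to 45.1 CPM in the other libraries.

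The upstream sequence of some members carries the letters that NF-kappaB, interferon factors and AP-1 are known to bind. They are shown for the neighbouring genes Cxcl1, Cxcl2 and Cxcl3, for Ccl9, which had the largest log2 change of CPM + 1 in fl/fl at 3 weeks of AAI, and for Cxcl10, an interferon-induced ligand. Cxcl2, Cxcl3 and Cxcl10 were chosen for display after the matches were seen. Each run is the plus-strand or minus-strand sequence just before the RefSeq start (GRCm38.p6), 5′ to 3′, with matches in capitals to kappaB, to the core of the interferon-stimulated response element (ISRE) and to TGANTCA, the AP-1 site. Cxcl1, Cxcl2 and Cxcl3 are shown on the plus strand at chr5:90891125-90891244, chr5:90903779-90903898 and chr5:90785981-90786100. Ccl9 (chr11:83578637-83578756) and Cxcl10 (chr5:92348890-92349139) are shown on the minus strand.
Cxcl1: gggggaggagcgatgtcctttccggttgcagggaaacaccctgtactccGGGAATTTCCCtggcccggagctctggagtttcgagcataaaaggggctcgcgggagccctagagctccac
Cxcl2: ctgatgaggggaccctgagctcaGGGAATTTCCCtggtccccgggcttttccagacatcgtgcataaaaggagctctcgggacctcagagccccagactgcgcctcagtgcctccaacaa
Cxcl3: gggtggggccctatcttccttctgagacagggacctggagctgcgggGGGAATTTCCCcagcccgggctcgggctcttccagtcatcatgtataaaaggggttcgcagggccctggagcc
Ccl9: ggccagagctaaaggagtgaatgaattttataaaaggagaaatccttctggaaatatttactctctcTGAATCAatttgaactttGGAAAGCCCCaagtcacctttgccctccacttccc
Cxcl10: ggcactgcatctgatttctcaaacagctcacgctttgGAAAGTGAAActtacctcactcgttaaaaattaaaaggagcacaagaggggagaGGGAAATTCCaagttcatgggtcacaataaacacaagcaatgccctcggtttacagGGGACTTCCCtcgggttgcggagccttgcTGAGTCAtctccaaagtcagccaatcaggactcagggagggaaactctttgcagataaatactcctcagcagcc
In Cxcl1, Cxcl2 and Cxcl3 the capitals are the same 11 letters, which match kappaB on both strands with the 2 matches shifted by 1 base. In Ccl9 the capitals are a TGANTCA match, ending 47 bases before the start, and a kappaB match on the opposite strand. In Cxcl10 they are, in order, ISRE, 2 kappaB matches and TGANTCA.

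RefSeq windows running from 250 bases before to 50 bases after the start were held for 42 members. On either strand, kappaB was found in 9 of them (21.43%), against 5.136% of 27025 genes. The kappaB members were Ccl9, Ccl20, Ccl27a, Ccr3, Ccr6, Cxcl1, Cxcl2, Cxcl3 and Cxcl10. ISRE was found in Ccl19, Cxcl10 and Cxcl14 (7.143%, against 3.993%), and TGANTCA, which reads the same on both strands, in 9 members (21.43%, against 8.973%). These are matches of letters in a short window, with no test and no measure of binding. Cxcl11 and Ccl2 are among the members with no entry.

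Under AAI most of the family rose. At 3 weeks in fl/fl, 44 of the 49 tested members were higher than under DMSO and 2 were lower, where the same test called 58% of all 14604 tested genes higher and 18.2% lower. At 6 weeks 43 were higher and 0 lower by limma, against 59.8% and 13.9% of all genes, with 46 at an unadjusted p under 0.05 in either direction and 1 lower by edgeR and by DESeq2. In PTKO, 42 were higher and 3 lower at 3 weeks (57.2% and 13.9% of all genes), and 38 were higher and 1 lower at 6 weeks (53.7% and 11.4%). The tests came from limma on log2(CPM + 1) with an adjusted p under 0.05. Many members, such as Ccl2, Ccl7 and Ccl8, were under 1 CPM in every DMSO library and passed the filter only through AAI libraries. Such members could be called higher but hardly lower, so the filter favours rises in these counts and in the medians below. The all-gene shares passed the same filter. Changes below are differences on that scale with their standard error, and they understate the change of low genes.

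The median change of the 49 members was 2.64 in fl/fl at 3 weeks and 2.53 at 6 weeks, beside 0.45 for all tested genes at each time. In PTKO it was 1.99 and 1.71, beside 0.42 and 0.36. Counting members with no reads under DMSO at their lower bound gave medians of 2.93, 2.82, 2.16 and 1.80. The all-gene median depends on scaling. Median-of-ratios scaling took it to 0.03 in fl/fl at 3 weeks and the call split of all genes to 36.6% higher and 34.2% lower, while quantile normalization took the split to 31.6% and 38.9%. The members kept medians of 2.22 and 1.86 under those scalings, with 44 and 41 of them higher. Relative to the all-gene median the members' own median change was 2.188. By highest group mean, 35 of the 49 members peaked in fl/fl at 3 weeks, 7 in fl/fl at 6 weeks, 4 in PTKO at 3 weeks and 3 in a DMSO group.

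**Figure D1:**
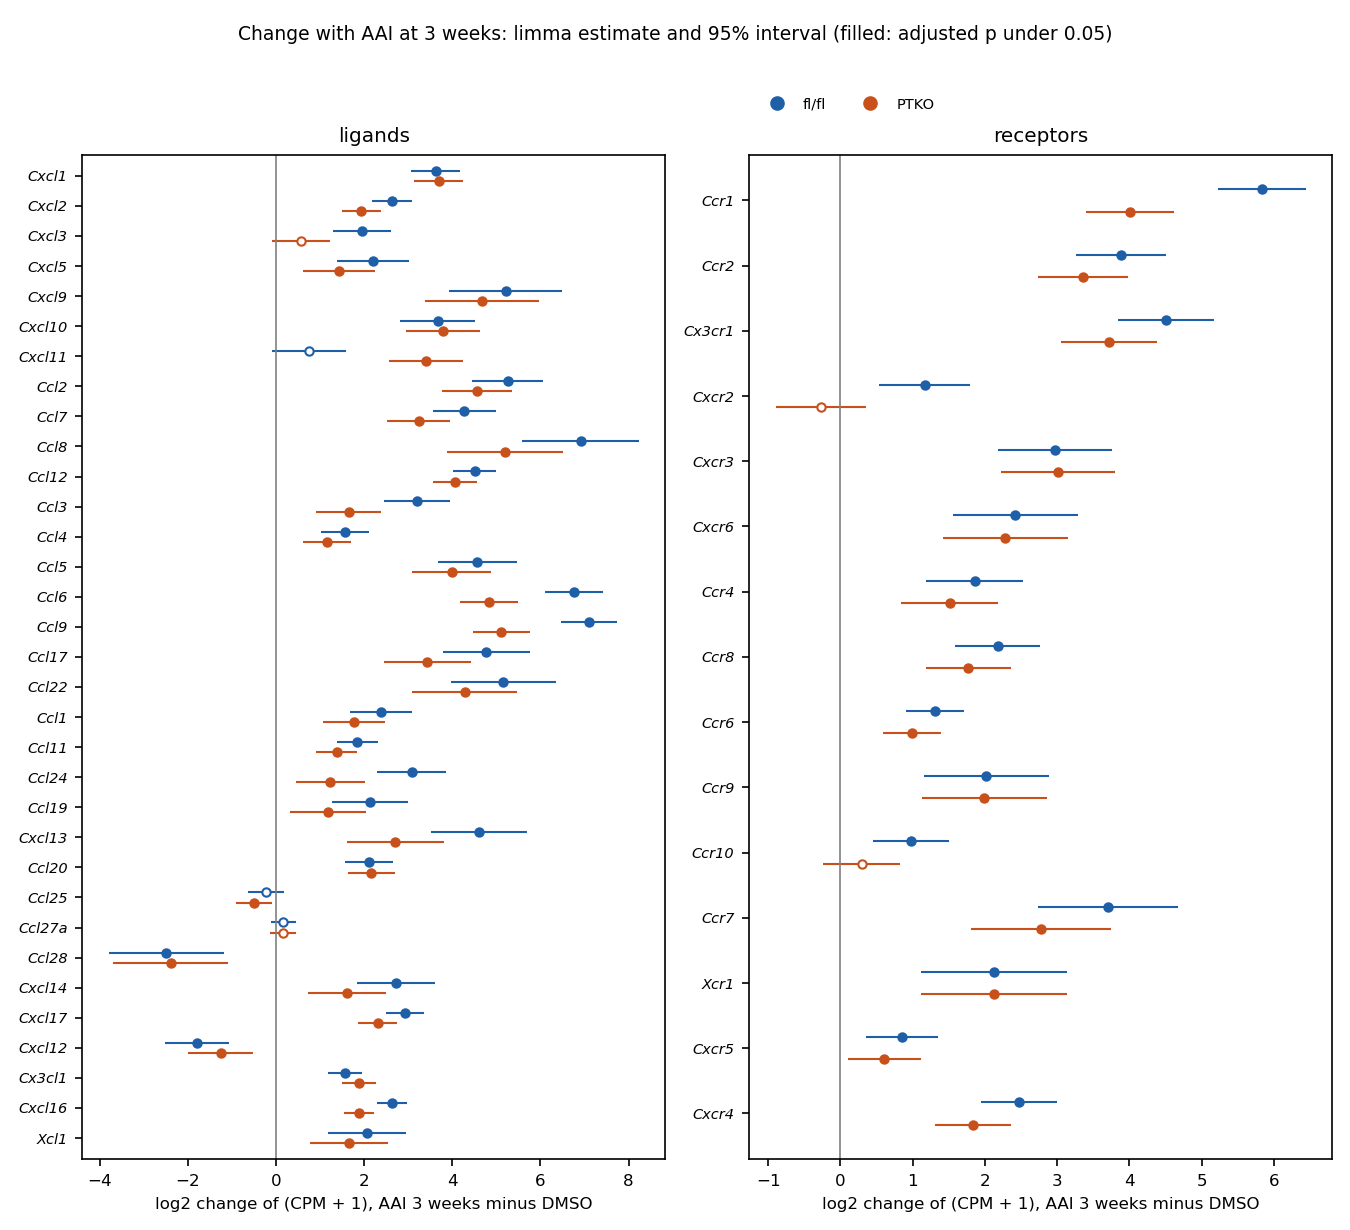
Each row is 1 tested chemokine ligand (left) or receptor (right), the x axis is the log2 change of CPM + 1 from DMSO to AAI at 3 weeks, points are limma estimates with 95% intervals, and filled points passed an adjusted p of 0.05. Nearly all points lie right of 0 in both genotypes, from 7.10 for Ccl9 in fl/fl down to the falls of Cxcl12 and Ccl28, and Cxcl11 is the member whose PTKO point lies farthest to the right of its fl/fl point.

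The monocyte-attracting ligands Ccl2, Ccl7 and Ccl12, and Ccl8 beside them, lie in a row on chromosome 11 with Ccl11 and Ccl1 (mm10, 82035571 to 82305690). All 4 rose in both genotypes at both times. Ccl2, the main ligand of CCR2, measured 0.605, 0.0508 and 0.687 CPM under DMSO, 34.4, 76.6 and 56.6 CPM at 3 weeks and 65.9, 30.1 and 68.98 CPM at 6 weeks in fl/fl. In PTKO it measured 0.0499, 0.385 and 0.269 CPM under DMSO, 45.01, 25.8 and 18.4 CPM at 3 weeks and 29.8, 35.8 and 17.03 CPM at 6 weeks. No DMSO library of either genotype reached 1 CPM, and the lowest AAI library was far above them (changes at 3 weeks of 5.25 ± 0.38 in fl/fl, adjusted p = 5.43e-09, and 4.56 ± 0.38 in PTKO, adjusted p = 5.12e-08). Ccl12, a mouse relative of Ccl2, measured 0.121, 0 and 0.264 CPM under DMSO, 18.1, 32.6 and 25.2 CPM at 3 weeks and 13.2, 8.36 and 14.9 CPM at 6 weeks in fl/fl. Its PTKO values were 0, 0 and 0.108 CPM under DMSO, 19.9, 14.4 and 15.1 CPM at 3 weeks and 11.2, 9.94 and 6.70 CPM at 6 weeks. Every AAI library of Ccl12 was far above every DMSO library, and its 3-week changes were 4.51 ± 0.23 in fl/fl and 4.06 ± 0.23 in PTKO.

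Ccl7, a ligand of CCR1, CCR2 and CCR3, measured 0.0605, 0 and 0.106 CPM under DMSO, 13.1, 27.6 and 20.02 CPM at 3 weeks and 9.72, 5.46 and 9.59 CPM at 6 weeks in fl/fl. PTKO libraries held 0.0499, 0 and 0.108 CPM under DMSO, 14.6, 6.10 and 7.78 CPM at 3 weeks and 5.35, 4.47 and 1.64 CPM at 6 weeks for Ccl7. In each genotype the 6-week libraries were below the lowest 3-week library. Ccl8, which in the mouse acts through CCR8, measured 0.0605, 0.0508 and 0.211 CPM under DMSO, 99.4, 131 and 176 CPM at 3 weeks and 59.8, 15.95 and 72.9 CPM at 6 weeks in fl/fl. PTKO libraries held 0.0999, 0.289 and 0.108 CPM under DMSO, 98.3, 25.4 and 28.1 CPM at 3 weeks and 22.5, 23.8 and 3.68 CPM at 6 weeks for Ccl8. Ccl8 had a change of 6.91 ± 0.62 in fl/fl at 3 weeks, among the largest in the family, and its spread in PTKO was wide, with replicate 1 at 3 weeks alone near the fl/fl level.

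Ccl6 and Ccl9, mouse ligands of CCR1 that myeloid cells make in quantity, were, with Ccl8, the members with the largest changes in fl/fl at 3 weeks on the log2(CPM + 1) scale, which understates the fold of genes that start near 0. Ccl9 measured 0.969, 1.32 and 1.16 CPM under DMSO, 262, 261 and 369 CPM at 3 weeks and 184, 104 and 128 CPM at 6 weeks in fl/fl. In PTKO Ccl9 measured 0.799, 1.11 and 2.05 CPM under DMSO, 111, 56.4 and 72.6 CPM at 3 weeks and 73.9, 87.3 and 37.7 CPM at 6 weeks. The change at 3 weeks was 7.10 ± 0.30 in fl/fl (adjusted p = 5.83e-11) and 5.11 ± 0.30 in PTKO (adjusted p = 1.81e-09), and at 6 weeks 5.99 ± 0.30 and 4.81 ± 0.30. Ccl6 measured 3.57, 3.15 and 3.28 CPM under DMSO, 443, 386 and 606 CPM at 3 weeks and 237, 126 and 195 CPM at 6 weeks in fl/fl. In PTKO Ccl6 measured 2.497, 2.26 and 3.72 CPM under DMSO, 169.7, 67.1 and 105 CPM at 3 weeks and 82.3, 88.3 and 46.4 CPM at 6 weeks. Its 3-week changes were 6.76 ± 0.31 and 4.83 ± 0.31, and no PTKO library at 3 weeks reached the lowest fl/fl library for either gene.

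Ccl3, Ccl4 and Ccl5 rose as well. They sit with Ccl6 and Ccl9 on chromosome 11 (83525778 to 83664683). Ccl3, made by activated macrophages and lymphocytes, measured 0.303, 0.102 and 0.106 CPM under DMSO, 5.08, 12.7 and 13.7 CPM at 3 weeks and 12.6, 5.801 and 7.89 CPM at 6 weeks in fl/fl. In PTKO Ccl3 measured 0.1998, 0.144 and 0.108 CPM under DMSO, 4.35, 1.84 and 2.07 CPM at 3 weeks and 1.61, 3.21 and 0.921 CPM at 6 weeks, and its 3-week changes were 3.20 ± 0.35 and 1.65 ± 0.35. Ccl4, a close relative of Ccl3, stayed below 4 CPM: fl/fl libraries held 0.363, 0.254 and 0.317 CPM under DMSO, 1.87, 3.61 and 3.403 CPM at 3 weeks and 3.89, 1.62 and 2.55 CPM at 6 weeks. PTKO libraries held 0.2997, 0.192 and 0.377 CPM under DMSO, 3.25, 1.25 and 1.46 CPM at 3 weeks and 1.45, 1.105 and 0.716 CPM at 6 weeks for Ccl4. The AAI groups of Ccl4 lay above their DMSO groups in both genotypes. Ccl5, a product of T and NK cells and of injured epithelium, measured 0.727, 0.762 and 1.004 CPM under DMSO, 29.97, 30.3 and 82.8 CPM at 3 weeks and 43.3, 19.6 and 39.2 CPM at 6 weeks in fl/fl. In PTKO Ccl5 measured 1.299, 1.35 and 2.05 CPM under DMSO, 78.1, 27.6 and 27.9 CPM at 3 weeks and 23.4, 29.9 and 14.3 CPM at 6 weeks. Its 3-week changes of 4.57 ± 0.43 and 3.99 ± 0.43 came with 1 library of each genotype, fl/fl replicate 3 and PTKO replicate 1, well above the other libraries.

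Neutrophil-attracting ligands with the ELR motif act on CXCR2. Cxcl1, Cxcl2, Cxcl3 and Cxcl5, whose genes neighbour each other on chromosome 5 (90759360 to 90905938), rose in fl/fl at both times. Cxcl1, which injured tubules and stroma release, measured 1.15, 0.711 and 1.06 CPM under DMSO, 27.4, 22.2 and 20.7 CPM at 3 weeks and 14.5, 8.45 and 17.2 CPM at 6 weeks in fl/fl. In PTKO Cxcl1 measured 0.799, 0.433 and 0.431 CPM under DMSO, 20.5, 14.1 and 23.5 CPM at 3 weeks and 18.6, 10.7 and 21.8 CPM at 6 weeks. The genotypes overlapped at both AAI times, with 3-week changes of 3.63 ± 0.26 and 3.69 ± 0.26. Cxcl2, made mainly by myeloid cells, measured 0.182, 0 and 0.0528 CPM under DMSO, 4.81, 6.05 and 6.28 CPM at 3 weeks and 5.28, 3.16 and 8.27 CPM at 6 weeks in fl/fl. In PTKO Cxcl2 measured 0, 0 and 0.0539 CPM under DMSO, 2.93, 3.197 and 2.59 CPM at 3 weeks and 2.86, 2.104 and 2.71 CPM at 6 weeks, and its 3-week changes were 2.64 ± 0.21 and 1.94 ± 0.21.

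Cxcl3 and Cxcl5 had no read in fl/fl under DMSO. Cxcl3 reached 1.01, 5.44 and 3.45 CPM at 3 weeks and 2.24, 0.597 and 1.08 CPM at 6 weeks in fl/fl. In PTKO it had no read under DMSO and held 0.752, 0.367 and 0.365 and then 0.208, 0.263 and 0.153 CPM. Against a floor of 3 reads over the DMSO group, Cxcl3 was at least 60.6-fold higher in fl/fl at 3 weeks and at least 9.79-fold higher in PTKO. The PTKO change was not called, though it was with a pseudocount of 0.1, only the groups compared, edgeR or DESeq2. Cxcl5, an epithelial ligand of CXCR2, reached 1.75, 9.94 and 2.27 CPM at 3 weeks and 8.72, 3.92 and 8.12 CPM at 6 weeks in fl/fl. In PTKO Cxcl5 measured 0.0499, 0 and 0 CPM under DMSO, 1.78, 2.65 and 1.05 CPM at 3 weeks and 1.87, 2.47 and 2.15 CPM at 6 weeks. Replicate 2 of fl/fl at 3 weeks was the high library for both Cxcl3 and Cxcl5, and Cxcl5 was at least 85.5-fold higher in that group than the floor.

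Cxcl9 and Cxcl10, interferon-induced ligands of CXCR3 made by macrophages, endothelium and epithelium, rose in both genotypes. Cxcl9 measured 2.06, 1.73 and 1.74 CPM under DMSO, 104, 68.6 and 157 CPM at 3 weeks and 78.9, 21.2 and 57.7 CPM at 6 weeks in fl/fl. In PTKO Cxcl9 measured 1.898, 2.45 and 2.53 CPM under DMSO, 165, 60.9 and 57.1 CPM at 3 weeks and 36.1, 47.6 and 5.93 CPM at 6 weeks. The 3-week changes were 5.21 ± 0.61 and 4.68 ± 0.61, and the genotypes overlapped at each time. Cxcl10 measured 2.66, 1.88 and 2.54 CPM under DMSO, 45.3, 30.4 and 51.8 CPM at 3 weeks and 41.5, 14.2 and 36.3 CPM at 6 weeks in fl/fl. In PTKO Cxcl10 measured 3.197, 3.27 and 2.15 CPM under DMSO, 99.5, 42.3 and 33.1 CPM at 3 weeks and 19.9, 18.4 and 9.97 CPM at 6 weeks, and its 3-week changes were 3.67 ± 0.40 and 3.79 ± 0.40. PTKO replicate 1 at 3 weeks was the highest of the 18 libraries for both genes.

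Ccl17 and Ccl22, ligands of CCR4 that dendritic cells and macrophages make, neighbour Cx3cl1 on chromosome 8 (94745590 to 94812036) and rose in both genotypes at both times. Ccl22 measured 0.484, 0.711 and 0.528 CPM under DMSO, 56.1, 31.8 and 93.7 CPM at 3 weeks and 47.6, 13.9 and 25.6 CPM at 6 weeks in fl/fl. In PTKO Ccl22 measured 0.4495, 0.144 and 0.162 CPM under DMSO, 39.1, 13.96 and 22.6 CPM at 3 weeks and 9.66, 10.1 and 1.18 CPM at 6 weeks. Its 3-week changes were 5.16 ± 0.56 and 4.28 ± 0.56, and replicate 3 of PTKO at 6 weeks was the AAI library nearest to the DMSO values. Ccl17 measured 0.182, 0.203 and 0 CPM under DMSO, 41.1, 11.4 and 54.4 CPM at 3 weeks and 21.5, 8.53 and 13.3 CPM at 6 weeks in fl/fl. In PTKO Ccl17 measured 0.2997, 0.144 and 0.0539 CPM under DMSO, 17.7, 7.901 and 10.9 CPM at 3 weeks and 4.36, 5.52 and 1.74 CPM at 6 weeks, and its 3-week changes were 4.77 ± 0.46 and 3.44 ± 0.46. Ccl1, a ligand of CCR8, had no read in fl/fl under DMSO, rose in all 4 AAI comparisons and was at least 82.7-fold higher in fl/fl at 3 weeks. Its PTKO call at 6 weeks was lost with quantile normalization or without PTKO 6-week replicate 1 or 2.

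The eotaxins attract eosinophils through CCR3 and rose at 3 weeks. Ccl24, which macrophages make, had no read in fl/fl under DMSO and held 12.4, 5.58 and 5.89 CPM at 3 weeks and 1.74, 0.256 and 0.619 CPM at 6 weeks. In PTKO Ccl24 measured 0.1498, 0.0481 and 0.0539 CPM under DMSO, 4.24, 0.735 and 0.8102 CPM at 3 weeks and 0.2596, 0.316 and 0.0511 CPM at 6 weeks. In fl/fl at 3 weeks it was at least 146-fold higher than the floor. Ccl11, which fibroblasts make, measured 0.363, 0 and 0.159 CPM under DMSO, 4.52, 3.09 and 2.27 CPM at 3 weeks and 0.748, 0.512 and 0.619 CPM at 6 weeks in fl/fl. In PTKO Ccl11 measured 0.0499, 0.433 and 0.162 CPM under DMSO, 2.97, 1.62 and 1.94 CPM at 3 weeks and 0.623, 0.842 and 0.153 CPM at 6 weeks. Both genes passed the test at 3 weeks in both genotypes. At 6 weeks neither was called, but in fl/fl, where Ccl24 was at least 16.04-fold higher than the floor, a pseudocount of 0.1 or only the groups compared called both, and edgeR and DESeq2 called Ccl24.

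Cxcl13, which draws B cells through CXCR5 and marks lymphoid follicles, measured 0.424, 0.305 and 0.106 CPM under DMSO, 13.03, 85.3 and 23.5 CPM at 3 weeks and 51.3, 20.99 and 45.3 CPM at 6 weeks in fl/fl. In PTKO Cxcl13 measured 0.2997, 0.481 and 0.431 CPM under DMSO, 9.38, 4.96 and 11.4 CPM at 3 weeks and 25.5, 17.6 and 9.104 CPM at 6 weeks. The 3-week changes were 4.61 ± 0.52 and 2.71 ± 0.52, with replicate 2 of fl/fl at 3 weeks far above its group. Ccl19, the CCR7 ligand of lymphoid stroma, measured 1.94, 1.12 and 0.581 CPM under DMSO, 4.96, 7.64 and 14.9 CPM at 3 weeks and 6.83, 2.64 and 4.56 CPM at 6 weeks in fl/fl. In PTKO Ccl19 measured 0.4495, 1.15 and 1.67 CPM under DMSO, 4.47, 2.39 and 4.29 CPM at 3 weeks and 2.54, 3.79 and 0.869 CPM at 6 weeks, and it rose in all AAI comparisons but PTKO at 6 weeks. The Ccl19 call in PTKO at 3 weeks was not made with median-of-ratios scaling, quantile normalization or edgeR. Ccl20, the ligand of CCR6, rose in all 4 AAI comparisons and did not exceed 5.39 CPM in any library.

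The membrane-held ligands were abundant before AAI. Cx3cl1, fractalkine, which endothelium and tubules hold on their surface for CX3CR1 cells, measured 172, 131 and 117 CPM under DMSO, 365, 410.2 and 467 CPM at 3 weeks and 322, 328 and 324 CPM at 6 weeks in fl/fl. In PTKO Cx3cl1 measured 86.6, 110.5 and 118 CPM under DMSO, 396, 341 and 427 CPM at 3 weeks and 292, 278 and 173 CPM at 6 weeks. It rose by a modest 1.57 ± 0.18 in fl/fl and 1.88 ± 0.18 in PTKO at 3 weeks, and every AAI library was above every DMSO library of its genotype. Cxcl16, the membrane-held ligand of CXCR6, measured 49.95, 50.8 and 48.8 CPM under DMSO, 275, 306 and 375 CPM at 3 weeks and 277, 195 and 304 CPM at 6 weeks in fl/fl. In PTKO Cxcl16 measured 50.1, 60.8 and 61.2 CPM under DMSO, 264, 206 and 180.4 CPM at 3 weeks and 192, 197 and 173 CPM at 6 weeks, and its 3-week changes were 2.64 ± 0.16 and 1.89 ± 0.16.

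Cxcl14, an epithelial and stromal chemokine, measured 29.1, 23.4 and 7.82 CPM under DMSO, 84.2, 134 and 162 CPM at 3 weeks and 121, 59.7 and 84.8 CPM at 6 weeks in fl/fl. In PTKO Cxcl14 measured 9.64, 24.7 and 19.3 CPM under DMSO, 57.1, 52.7 and 49.99 CPM at 3 weeks and 53.5, 49.1 and 28.1 CPM at 6 weeks, and its 3-week changes were 2.72 ± 0.42 and 1.61 ± 0.42. Cxcl17, a mucosal chemokine, was near 0 under DMSO and held 5.599, 7.69 and 7.15 CPM at 3 weeks and 4.88, 5.89 and 9.51 CPM at 6 weeks in fl/fl. In PTKO Cxcl17 measured 0.0499, 0.192 and 0.108 CPM under DMSO, 4.35, 5.11 and 4.13 CPM at 3 weeks and 2.596, 3.89 and 1.94 CPM at 6 weeks, and it rose in all 4 AAI comparisons. Ccl27a, a skin-type epithelial ligand, measured 2.18, 1.47 and 1.48 CPM under DMSO, 1.94, 1.92 and 2.22 CPM at 3 weeks and 2.59, 3.33 and 3.33 CPM at 6 weeks in fl/fl. In PTKO Ccl27a measured 1.898, 1.44 and 1.67 CPM under DMSO, 2.02, 1.98 and 1.904 CPM at 3 weeks and 3.17, 2.68 and 2.404 CPM at 6 weeks. It was called higher at 6 weeks in both genotypes, calls that median-of-ratios scaling, quantile normalization, edgeR and DESeq2 did not make, and its 6-week change in fl/fl was 0.14 relative to the all-gene median. Ccl27a overlaps Il11ra1 on the opposite strand and has the near-identical copy Ccl27b, so its reads are uncertain.

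A few members fell. Cxcl12, the constitutive ligand of CXCR4 made by stroma, endothelium and podocytes, measured 189, 154 and 98.6 CPM under DMSO, 21.9, 69.7 and 43.1 CPM at 3 weeks and 122, 81.5 and 60.01 CPM at 6 weeks in fl/fl. In PTKO Cxcl12 measured 71.3, 132 and 89.8 CPM under DMSO, 42.5, 35.6 and 39.5 CPM at 3 weeks and 63.9, 52.4 and 65.5 CPM at 6 weeks. The 3-week libraries were below all DMSO libraries of their genotype (-1.79 ± 0.35 in fl/fl, adjusted p = 0.000202, and -1.25 ± 0.35 in PTKO, adjusted p = 0.00422). At 6 weeks the changes were -0.75 ± 0.35 (adjusted p = 0.0608) and -0.64 ± 0.35 (adjusted p = 0.114), which edgeR, DESeq2 and median-of-ratios scaling did call as falls, as did the fit without fl/fl DMSO replicate 3 and that without fl/fl 6-week replicate 1 in fl/fl (-1.01 in each).

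Ccl28, a mucosal epithelial ligand of CCR10, measured 30.9, 88.2 and 52.4 CPM under DMSO, 2.76, 26.2 and 7.46 CPM at 3 weeks and 46.8, 127 and 29.8 CPM at 6 weeks in fl/fl. In PTKO Ccl28 measured 149, 109 and 104 CPM under DMSO, 12.3, 35.4 and 23.9 CPM at 3 weeks and 30.1, 50.9 and 33.8 CPM at 6 weeks. It fell at 3 weeks in both genotypes (-2.49 ± 0.62 in fl/fl, adjusted p = 0.00168, and -2.39 ± 0.62 in PTKO, adjusted p = 0.00264), and at 6 weeks the libraries overlapped DMSO in fl/fl, whereas Ccl28 was called lower in PTKO (-1.65 ± 0.62, adjusted p = 0.0280). All PTKO libraries under DMSO were above all fl/fl ones, a difference that was not called, and at 6 weeks the genotypes overlapped. The PTKO call at 6 weeks was lost without PTKO DMSO replicate 1 (adjusted p = 0.0829), PTKO 6-week replicate 1 (0.0777) or PTKO 6-week replicate 3 (0.0662). In fl/fl the thick ascending limb markers Umod and Slc12a1 summed to 3864 to 7088 CPM under DMSO, 1608 to 3209 CPM at 3 weeks and 3196 to 7617 CPM at 6 weeks, so they too were lower at 3 weeks without overlap. In PTKO the sums were 3129 to 5340 CPM under DMSO, 3069 to 5179 CPM at 3 weeks and 5327 to 12752 CPM at 6 weeks, so they did not follow Ccl28 there. Their part in the Ccl28 values was not tested. Ccl25, a gut and thymus ligand, did not exceed 4.47 CPM in any library. It was called as a fall in PTKO at 3 weeks, a call lost with only the groups compared or without PTKO DMSO replicate 1, PTKO DMSO replicate 2 or PTKO 3-week replicate 3. In fl/fl at 3 weeks it was not called, but median-of-ratios scaling, quantile normalization, edgeR and DESeq2 called it there.

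**Figure D2:**
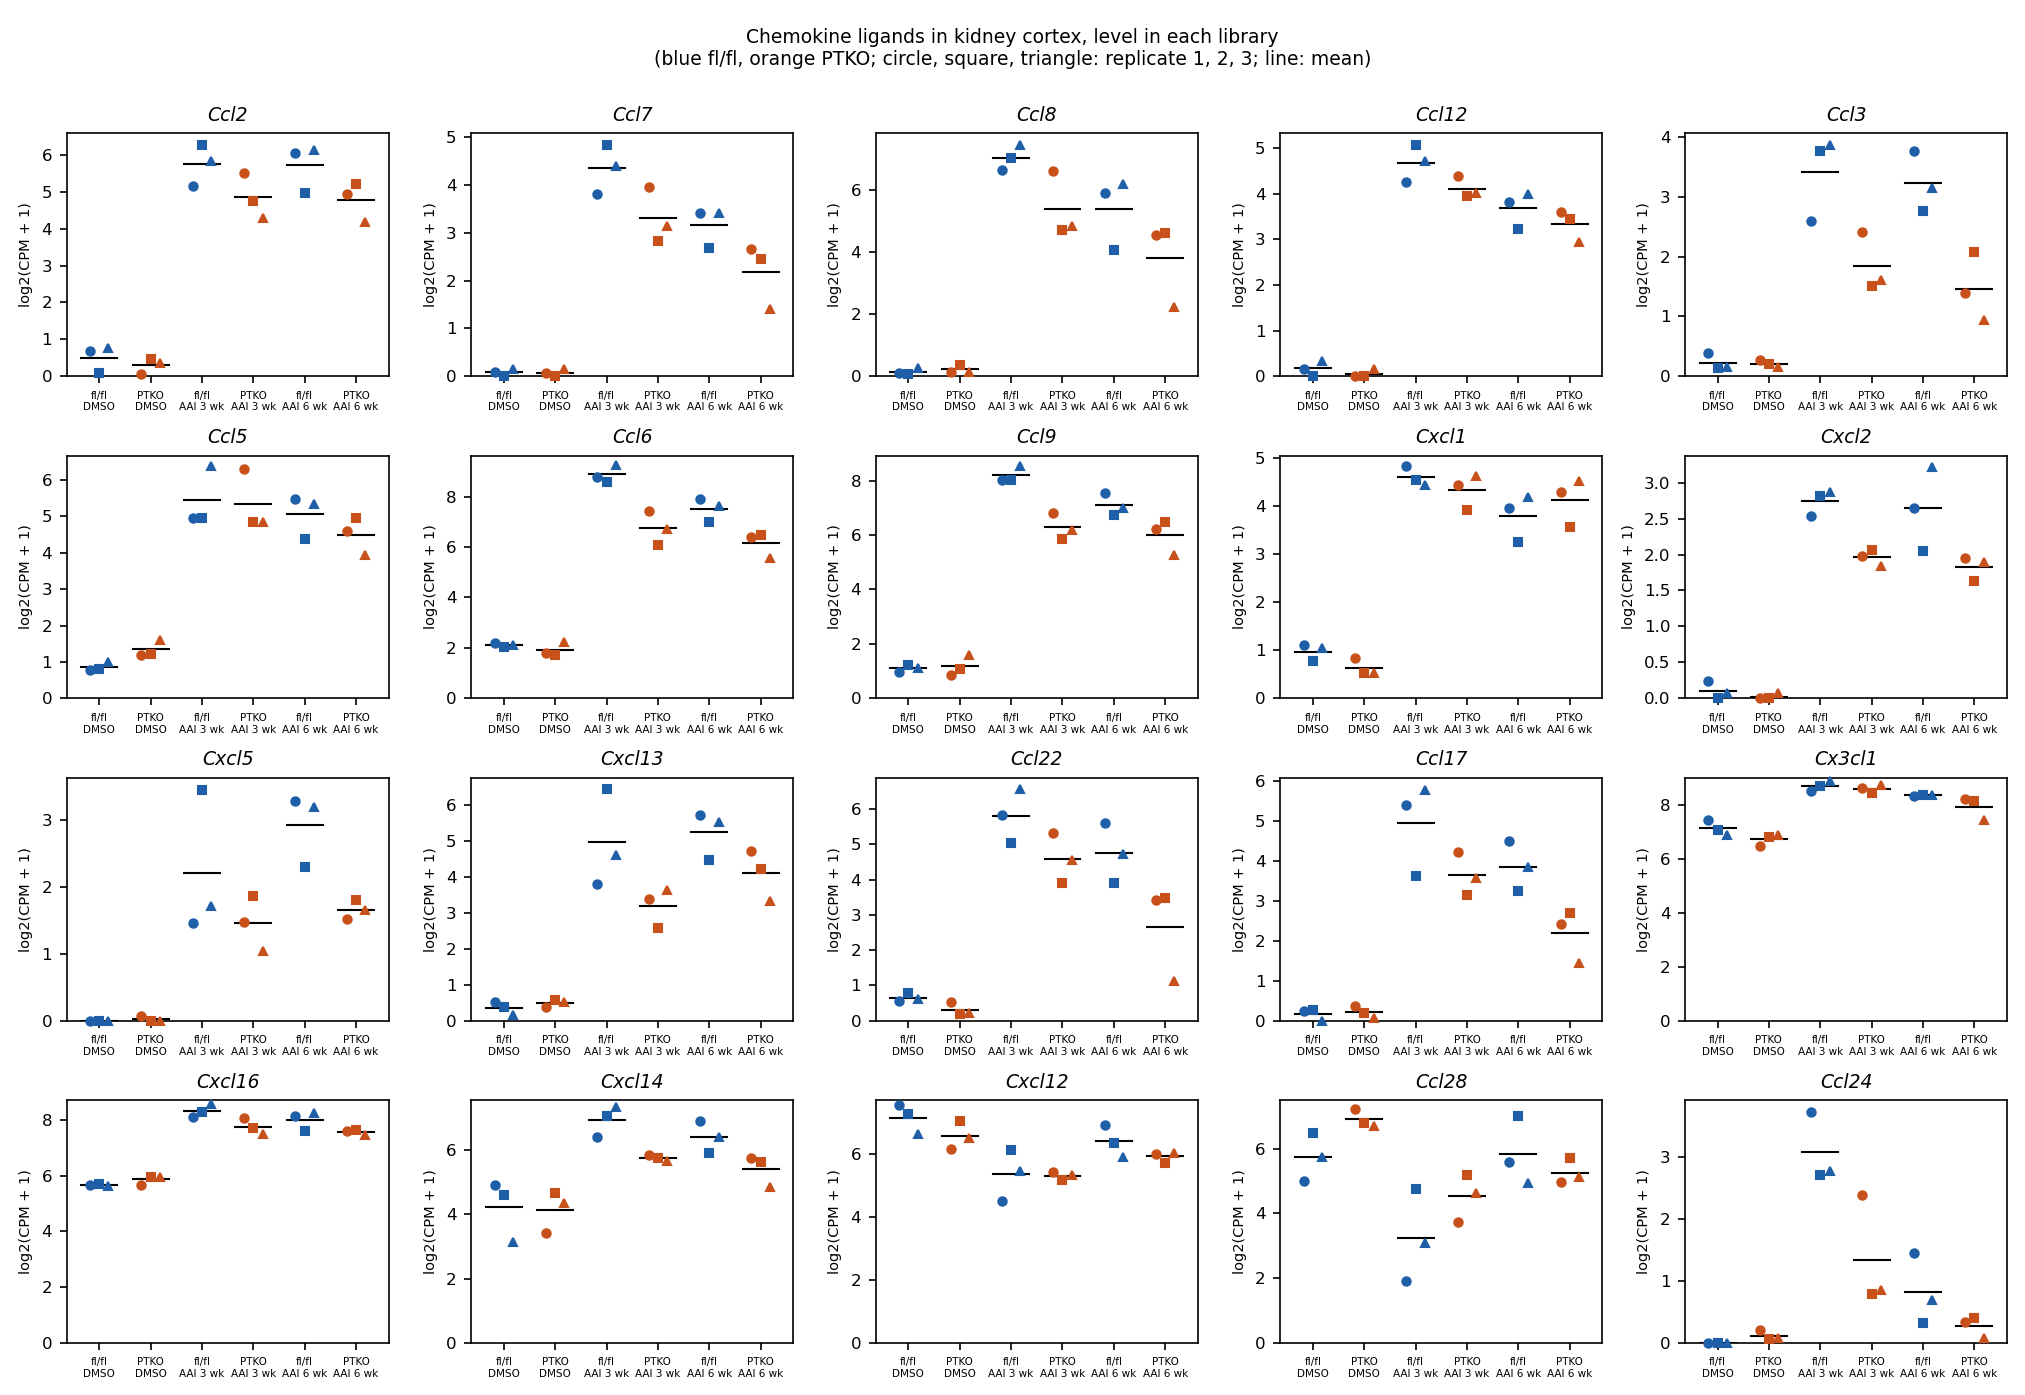
Each panel is 1 ligand, the y axis is log2(CPM + 1), blue points are fl/fl and orange points PTKO libraries, marker shapes give the replicate and lines are group means. Inflammatory ligands such as Ccl2, Ccl6 and Ccl9 sit near the bottom in both DMSO groups and high in all 4 AAI groups, with Ccl6 and Ccl9 lower in PTKO, while Cxcl12 and Ccl28 run the other way at 3 weeks.

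All 16 tested receptors rose in fl/fl at both times, and 14 and 13 rose in PTKO at 3 and 6 weeks. The all-gene shares called higher were 58% and 59.8% in fl/fl and 57.2% and 53.7% in PTKO. Ptprc, the pan-leukocyte gene CD45, rose by 3.91 and 3.62 in fl/fl and by 3.32 and 2.43 in PTKO. Receptors with a larger change than Ptprc numbered 3, 3, 4 and 3 of 16 in those comparisons. In bulk tissue, more cells of a type and more RNA per cell cannot be told apart.

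Among monocyte and macrophage receptors, Ccr1, which binds Ccl3, Ccl5, Ccl6 and Ccl9, measured 0.303, 0.254 and 0.845 CPM under DMSO, 76.1, 76.1 and 93.3 CPM at 3 weeks and 52.3, 21.2 and 45.4 CPM at 6 weeks in fl/fl. In PTKO Ccr1 measured 1.099, 0.577 and 0.7004 CPM under DMSO, 39.1, 21.8 and 24.6 CPM at 3 weeks and 8.52, 12.8 and 10.8 CPM at 6 weeks. Its 3-week changes were 5.83 ± 0.28 in fl/fl (adjusted p = 1.56e-10) and 4.01 ± 0.28 in PTKO (adjusted p = 1.04e-08), and every fl/fl library was above every PTKO library at each AAI time.

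Ccr2, the receptor that brings monocytes out of the marrow and into tissue, measured 7.08, 7.82 and 12.5 CPM under DMSO, 164, 98.9 and 187 CPM at 3 weeks and 122, 73.1 and 111 CPM at 6 weeks in fl/fl. In PTKO Ccr2 measured 9.79, 5.82 and 8.57 CPM under DMSO, 122, 71.99 and 84.02 CPM at 3 weeks and 58.5, 48.3 and 32.4 CPM at 6 weeks. Its 3-week changes were 3.88 ± 0.29 and 3.36 ± 0.29, and a few CPM were already present under DMSO. Cx3cr1, the fractalkine receptor of kidney-resident macrophages and patrolling monocytes, measured 7.99, 5.08 and 10.04 CPM under DMSO, 128, 277 and 198 CPM at 3 weeks and 179, 103 and 156 CPM at 6 weeks in fl/fl. In PTKO Cx3cr1 measured 6.94, 6.01 and 10.3 CPM under DMSO, 150.3, 94.3 and 98.4 CPM at 3 weeks and 59.9, 67.9 and 37.2 CPM at 6 weeks, and its 3-week changes were 4.51 ± 0.31 and 3.72 ± 0.31. Macrophage markers moved with these receptors: the 10 markers summed to 121 to 183 CPM under DMSO, to 5003 to 8277 CPM in fl/fl and 1664 to 3259 CPM in PTKO at 3 weeks, and to 2873 to 4981 and 1047 to 2341 CPM at 6 weeks. All 10 rose in each AAI comparison, where 53.7% to 59.8% of all genes did, and the markers' part in the receptor values was not tested.

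T and NK cell receptors rose too. Cxcr3, the receptor for Cxcl9 and Cxcl10, measured 0.605, 0.864 and 0.951 CPM under DMSO, 10.5, 10.7 and 19.9 CPM at 3 weeks and 16.4, 9.38 and 14.3 CPM at 6 weeks in fl/fl. In PTKO Cxcr3 measured 0.3996, 0.433 and 1.401 CPM under DMSO, 22.6, 8.599 and 10.2 CPM at 3 weeks and 8.15, 9.63 and 3.38 CPM at 6 weeks, with 3-week changes of 2.97 ± 0.37 and 3.01 ± 0.37. Cxcr6, on tissue-resident T and NK cells, measured 0.666, 0.6605 and 0.7398 CPM under DMSO, 6.53, 6.99 and 11.3 CPM at 3 weeks and 15.6, 7.68 and 13.1 CPM at 6 weeks in fl/fl. In PTKO Cxcr6 measured 0.599, 1.25 and 1.19 CPM under DMSO, 22.997, 5.696 and 4.66 CPM at 3 weeks and 6.49, 6.68 and 3.78 CPM at 6 weeks, and PTKO replicate 1 at 3 weeks was above every other library. Ccr9, a gut-homing receptor, measured 0.242, 0.406 and 0.423 CPM under DMSO, 3.99, 4.78 and 4.75 CPM at 3 weeks and 6.38, 3.75 and 5.49 CPM at 6 weeks in fl/fl. In PTKO Ccr9 measured 0.1998, 0.7697 and 0.0539 CPM under DMSO, 7.36, 2.46 and 3.85 CPM at 3 weeks and 3.38, 5.102 and 0.4603 CPM at 6 weeks, and it rose in all 4 AAI comparisons. Ccr9 overlaps other genes, which limits how its reads can be placed. Ccr4, Ccr6 and Ccr8 rose in all 4 comparisons from under 0.3 CPM and did not exceed 5.28 CPM. In PTKO at 6 weeks, the calls of Ccr6 and Ccr9 were lost with quantile normalization or without PTKO 6-week replicate 2. Ccr10 rose in fl/fl, up to 3.09 CPM, with a call that quantile normalization did not make, and overlaps Cntnap1 on the opposite strand. The T cell markers in the table summed to 3.69 to 6.24 CPM under DMSO and to 32.2 to 198 CPM under AAI.

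Among dendritic cell receptors, Ccr7, which carries dendritic cells and naive T cells to lymph nodes, measured 0.242, 0.254 and 0.423 CPM under DMSO, 13.4, 9.14 and 32.7 CPM at 3 weeks and 10.5, 4.95 and 6.34 CPM at 6 weeks in fl/fl. In PTKO Ccr7 measured 0.0499, 0.144 and 0.269 CPM under DMSO, 9.18, 4.81 and 7.25 CPM at 3 weeks and 4.15, 6.42 and 0.767 CPM at 6 weeks, and its 3-week changes were 3.71 ± 0.46 and 2.77 ± 0.46. Xcr1, which marks cross-presenting dendritic cells, measured 0.605, 0.508 and 1.37 CPM under DMSO, 5.93, 5.02 and 10.6 CPM at 3 weeks and 12.01, 6.57 and 10.7 CPM at 6 weeks in fl/fl. In PTKO Xcr1 measured 0.749, 0.241 and 0.431 CPM under DMSO, 9.62, 3.601 and 4.21 CPM at 3 weeks and 5.56, 5.58 and 0.4603 CPM at 6 weeks, and replicate 3 of PTKO at 6 weeks was within the DMSO range for Xcr1 but above it for Ccr7. Its ligand Xcl1, made by NK and CD8 T cells, rose in each AAI comparison but PTKO at 6 weeks and did not exceed 6.63 CPM. With a pseudocount of 0.1, only the groups compared, edgeR, DESeq2 or without PTKO 6-week replicate 3, Xcl1 was called there too.

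Cxcr4, the broadly expressed receptor of Cxcl12, measured 4.72, 4.67 and 6.02 CPM under DMSO, 28.4, 29.5 and 42.8 CPM at 3 weeks and 27.3, 29.2 and 30.9 CPM at 6 weeks in fl/fl. In PTKO Cxcr4 measured 3.297, 4.81 and 4.36 CPM under DMSO, 19.6, 11.9 and 21.7 CPM at 3 weeks and 19.01, 30.98 and 14.2 CPM at 6 weeks. It rose by 2.48 ± 0.25 and 1.83 ± 0.25 at 3 weeks while Cxcl12 fell. Cxcr2, the neutrophil receptor of the ELR ligands, was low: fl/fl libraries held 0.182, 0.102 and 0.211 CPM under DMSO, 1.01, 3.52 and 0.9597 CPM at 3 weeks and 1.495, 1.28 and 1.31 CPM at 6 weeks. PTKO libraries held 1.15, 0.0481 and 1.35 CPM under DMSO, 0.515, 0.331 and 0.486 CPM at 3 weeks and 0.364, 0.316 and 0.614 CPM at 6 weeks for Cxcr2. It was called higher in fl/fl (by 1.16 ± 0.29 at 3 weeks and 1.02 ± 0.29 at 6 weeks, with adjusted p = 0.00198 and 0.00548), calls that quantile normalization did not keep (adjusted p = 0.282 and 0.540). In PTKO its changes were -0.27 ± 0.29 and -0.29 ± 0.29, with adjusted p = 0.417 and 0.3996, which became calls of lower without PTKO DMSO replicate 2 (-0.64 and -0.66) and under quantile normalization (adjusted p = 0.0118 and 0.0231). The 9 neutrophil markers in the table summed to 0.605 to 3.91 CPM in fl/fl and 3.32 to 9.91 CPM in PTKO under DMSO. Their sums were 21.5 to 65.3 against 8.97 to 19.6 CPM at 3 weeks and 16.2 to 32.2 against 12.3 to 15.8 CPM at 6 weeks. The genotypes thus did not overlap at either AAI time, while PTKO at 3 weeks overlapped PTKO under DMSO. The part of neutrophils in the Cxcr2 values was not tested. Cxcr5, the B cell receptor of Cxcl13, rose in each AAI comparison but PTKO at 6 weeks and did not exceed 2.05 CPM. Quantile normalization made none of these Cxcr5 calls. Median-of-ratios scaling did not make those in PTKO at 3 weeks and in fl/fl at 6 weeks.

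**Figure D3:**
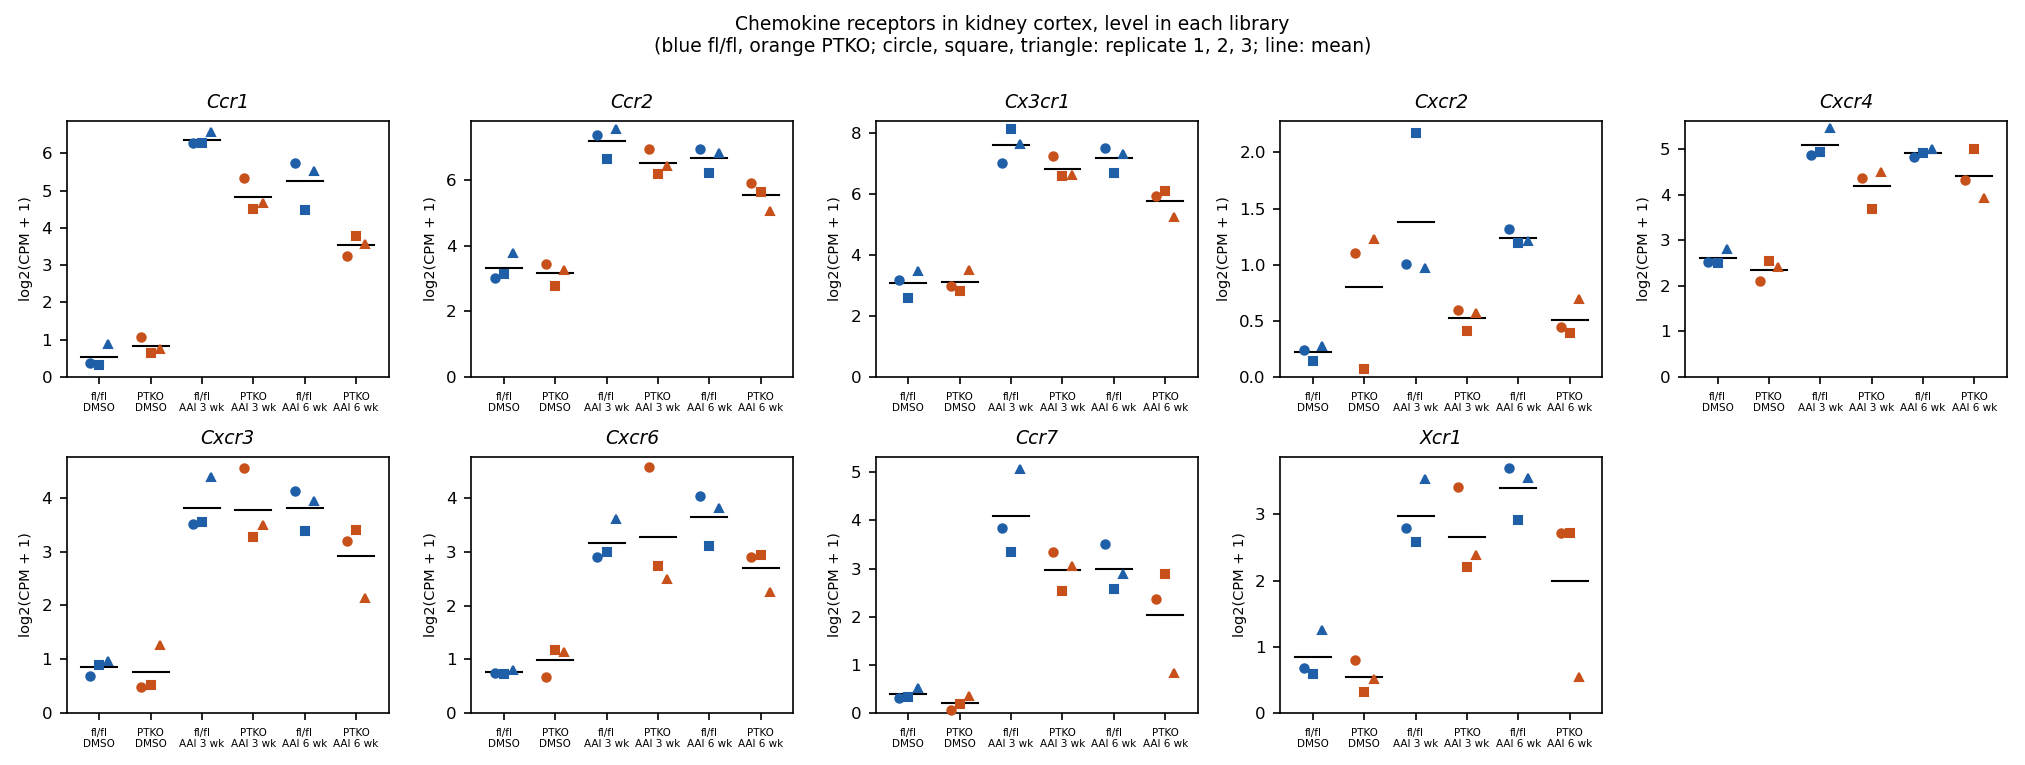
Each panel is 1 receptor, the y axis is log2(CPM + 1), blue points are fl/fl and orange points PTKO libraries, marker shapes give the replicate and lines are group means. Ccr1 shows the genotypes apart at both AAI times, while Cxcr3 and Cxcr6 overlap at 3 weeks, where PTKO replicate 1 is the highest library.

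Between 3 and 6 weeks, fl/fl lost part of the rise. Of the 49 members, 7 were lower at 6 than at 3 weeks and 2 were higher, where 6.07% and 7.16% of all genes were. The 7 were Ccl24 (-2.25 ± 0.37, adjusted p = 0.00199), Ccl6 (-1.38 ± 0.31), Ccl11 (-1.37 ± 0.22), Ccl7 (-1.18 ± 0.34), Ccr1 (-1.12 ± 0.28), Ccl9 (-1.11 ± 0.30) and Ccl12 (-0.997 ± 0.23). Both eotaxins are thus in the list, and Cxcl1 joined it with median-of-ratios scaling, quantile normalization or DESeq2. Ccl28 rose by 2.59 ± 0.62 (adjusted p = 0.0142) and Ccl27a by 0.43 ± 0.14 (adjusted p = 0.0487). Of the lower calls, 2 were left without fl/fl 3-week replicate 3 and 2 without fl/fl 6-week replicate 2. Without fl/fl 3-week replicate 1, fl/fl 3-week replicate 3 or fl/fl 6-week replicate 2, neither rise was called. The Ccl27a rise was called in 1 of 15 alternative runs and the Ccl28 rise in 11 of 16.

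In PTKO 9 members were lower at 6 than at 3 weeks and 0 were higher by limma (8.26% and 2.92% of all genes), with 20 at an unadjusted p under 0.05 in either direction and 0 higher by edgeR or DESeq2. These were Ccl22 (-1.93 ± 0.56), Cxcl10 (-1.69 ± 0.40, adjusted p = 0.0158), Ccr1 (-1.31 ± 0.28), Ccl7 (-1.14 ± 0.34), Ccl11 (-1.05 ± 0.22, adjusted p = 0.00931), Cx3cr1 (-1.05 ± 0.31), Ccr2 (-0.99 ± 0.29), Ccl12 (-0.78 ± 0.23) and Cx3cl1 (-0.68 ± 0.18). Ccl7, Ccl11, Ccl12 and Ccr1 are in both lists. The difference of the time changes between genotypes was called for 0 members by limma, edgeR and DESeq2 (0% of all genes by limma), with 2 at an unadjusted p under 0.05. The PTKO count was 0 without PTKO 3-week replicate 1, 3 without PTKO 3-week replicate 3 and 2 without PTKO 6-week replicate 3, so it rests on those libraries.

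Under DMSO no difference between the genotypes was detected for this family. By limma 0 of 49 members were called higher or lower (0.192% and 0.0959% of all genes), 1 had an unadjusted p under 0.05 (Cx3cl1), and edgeR and DESeq2 called 0. Many members, Ccl2, Ccl7 and Ccl8 among them, were under 1 CPM in every DMSO library. A genotype difference could hardly be called for them, so the count of 0 says little about those members. The mean was lower in PTKO for 24 of the 49, which includes differences of a few reads.

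At 3 weeks of AAI, 11 members were lower in PTKO than in fl/fl and 1 was higher, where 8% and 6.22% of all genes were. The members' median difference was -0.56, beside -0.04 for all genes, and 41 of 49 had a lower PTKO mean. The largest of these falls were Ccl6 (-2.13 ± 0.31, adjusted p = 0.00158) and Ccl9 (-1.92 ± 0.30, adjusted p = 0.00217), both ligands of CCR1. Ccl3 (-1.57 ± 0.35, adjusted p = 0.0105) and the receptor Ccr1 (-1.53 ± 0.28, adjusted p = 0.00492) were lower too. Ccl5, which also binds CCR1, was not called (-0.11). Ccl24 (-1.73 ± 0.37), Cxcl13 (-1.76 ± 0.52), Cxcl3 (-1.38 ± 0.31), Ccl7 (-1.04 ± 0.34), Cxcr4 (-0.90 ± 0.25), Cxcl2 (-0.78 ± 0.21) and Cxcl16 (-0.56 ± 0.16) were also lower. For 10 of these 11 no PTKO library reached the lowest fl/fl library, Ccl7 being the exception. Over the family, 17 members had PTKO libraries all below fl/fl, where 19.3% of all genes did.

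The 3-week count depended on single libraries. Without fl/fl replicate 1 it was 18 lower, and without fl/fl replicate 2, fl/fl replicate 3, PTKO replicate 2 or PTKO replicate 3 it was 6, 4, 3 and 7. Ccl6, Ccl9, Ccr1 and Cxcl11 were called under every alternative run, and each of the other 8 lost its call under at least 1, with highest adjusted p-values of 0.0601 to 0.225. Ccl7 was the weakest of them, called in 3 of 16 alternative runs.

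At 6 weeks 13 members were lower in PTKO and 1 was higher (11.8% and 3.27% of all genes). With median-of-ratios scaling these were 10 and 1 (6.3% and 5.48% of all genes), and with quantile normalization 8 and 1 (5.83% and 5.96%). The median difference was -0.82, beside -0.11 for all genes, and 46 of 49 had a lower PTKO mean. The receptors lower in PTKO included Ccr1 (-1.71 ± 0.28, adjusted p = 0.00215), Cx3cr1 (-1.40 ± 0.31, adjusted p = 0.0114) and Ccr2 (-1.13 ± 0.29). Among ligands, the lower members included Ccl3 (-1.76 ± 0.35, adjusted p = 0.00619), Ccl6 (-1.36 ± 0.31), Ccl9 (-1.10 ± 0.30) and Ccl4 (-0.79 ± 0.26). The CCR4 ligands Ccl22 (-2.08 ± 0.56) and Ccl17 (-1.67 ± 0.46) were lower too, as were Cxcl5 (-1.27 ± 0.39), Cxcl17 (-1.01 ± 0.20) and Cxcl2 (-0.82 ± 0.21). PTKO libraries were all below fl/fl for 21 members, where 21.1% of all genes did the same. Most alternative runs dropped Ccl4 and Cxcl5, which were called lower in 2 of 15 and 4 of 16.

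The 6-week count rested on the libraries and on the shared estimate of spread. It was 23 without fl/fl replicate 2, 3 without fl/fl replicate 1, 5 without fl/fl replicate 3 and 6 without PTKO replicate 3, and with only the compared groups in the fit 0 were lower, while Cxcl11 was still higher. Ccl3, Ccl6, Ccl9, Ccr1, Cxcl2 and Cxcl11 were called at both times, which is 50% of the 12 calls at 3 weeks and 42.86% of the 14 at 6 weeks. These comparisons share no library, but they share the fit's estimate of each gene's spread. The same overlap over all genes is not given here, so these percentages have no background beside them.

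**Figure D4:**
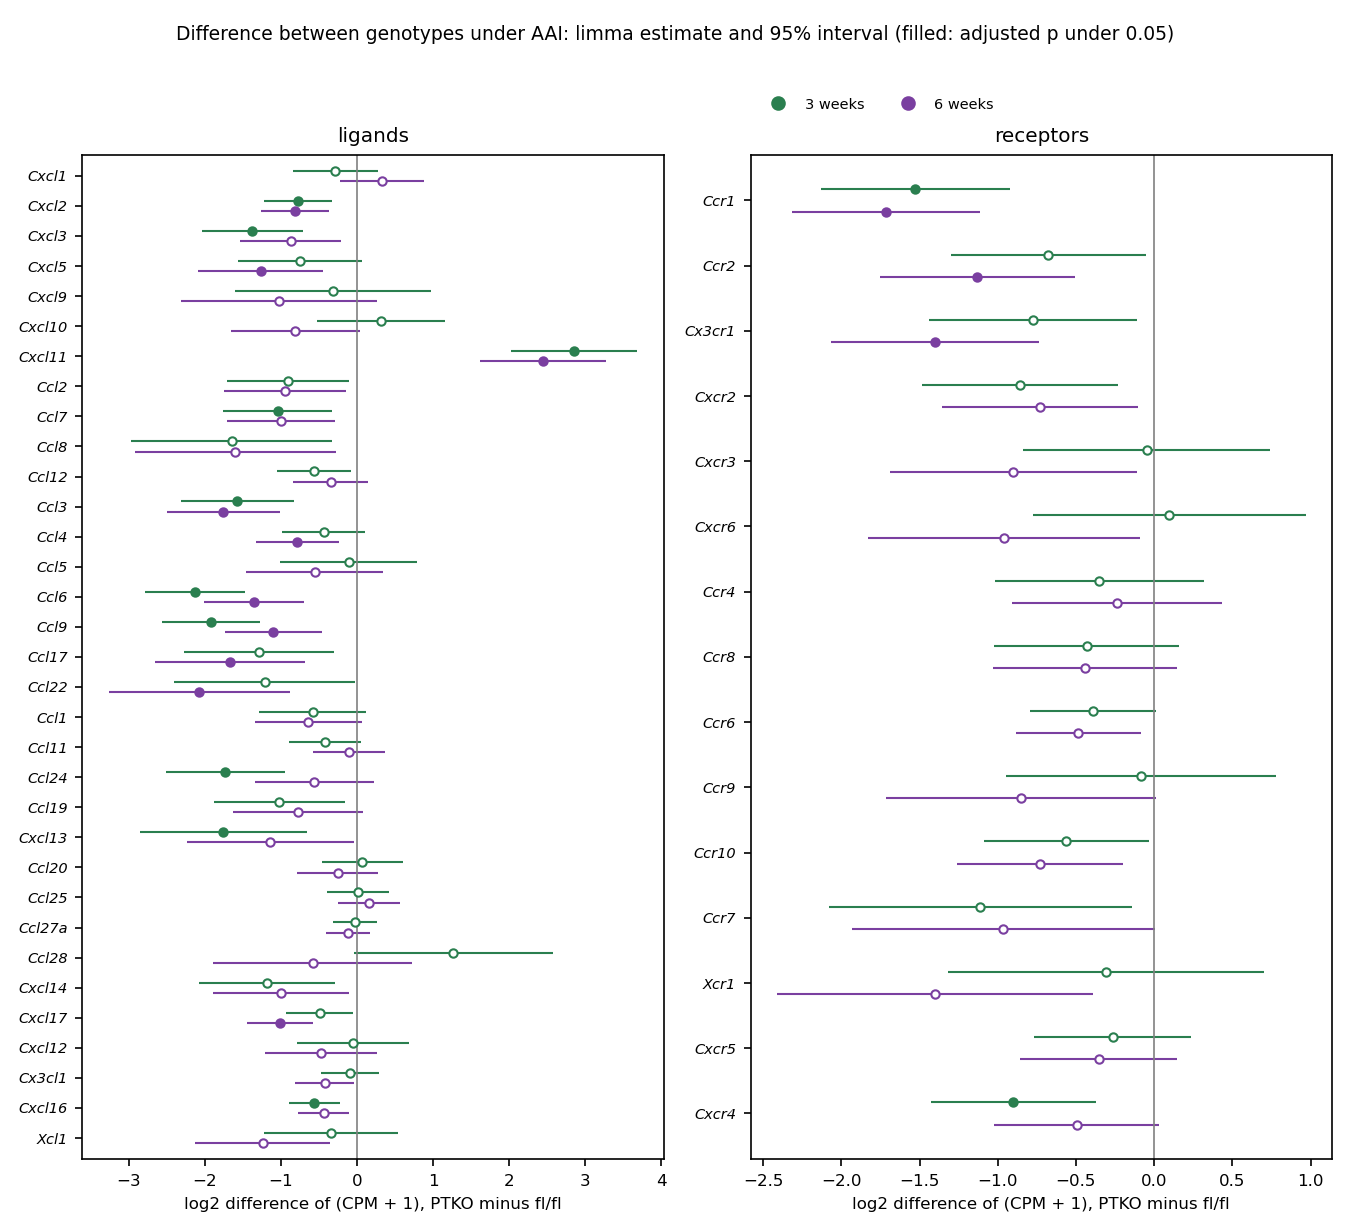
Each row is 1 tested ligand (left) or receptor (right), the x axis is the log2 difference of CPM + 1 between PTKO and fl/fl under AAI with its 95% interval, green is 3 weeks, purple is 6 weeks and filled points passed an adjusted p of 0.05. Most points lie left of 0, the filled ones between -0.56 and -2.13, and Cxcl11 alone is filled to the right at 2.85 and 2.45.

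Other members were not called between genotypes at either AAI time, and several of their intervals are wide. Ccl2 differed by -0.91 ± 0.38 at 3 weeks (95% interval -1.71 to -0.11) and -0.94 ± 0.38 at 6 weeks. Ccl8 differed by -1.65 ± 0.62 at 3 weeks (adjusted p = 0.0871). The lymphocyte axis sat near 0 at 3 weeks: Cxcl9 at -0.32 (interval -1.61 to 0.97), Cxcl10 at 0.32 (-0.53 to 1.16), Ccl5 at -0.11 (-1.01 to 0.80), Cxcr3 at -0.05 (-0.84 to 0.74) and Cxcr6 at 0.10 (-0.77 to 0.97). These intervals do not show that the genotypes were alike. Whether these genes differed in this from Ccl6, Ccl9 and Ccr1 was not tested. At 6 weeks Cxcl9 was at -1.02 (-2.31 to 0.27) and Cxcl10 at -0.81 (-1.66 to 0.03).

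The summed levels of some cell marker lists differed between the genotypes under AAI, and those of others overlapped. Over all genes the same test called 8% lower and 6.22% higher in PTKO at 3 weeks, and 11.8% and 3.27% at 6 weeks. At 3 weeks 9 of the 10 macrophage and monocyte markers were lower in PTKO and at 6 weeks 5 of 10, with the summed levels given above, and the lowest fl/fl sum was above the highest PTKO sum at each time. T cell markers had sums of 103 to 197 CPM in fl/fl and 65.7 to 198 CPM in PTKO at 3 weeks and 94.6 to 163 against 32.2 to 99.1 CPM at 6 weeks, which overlapped at each time. Proximal tubule markers were higher in PTKO for 5 of 7 at 3 weeks and 2 of 7 at 6 weeks. Injured tubule markers summed to 1952 to 1987 against 1287 to 1734 CPM at 3 weeks, without overlap, and to 838 to 1535 against 924 to 1113 CPM at 6 weeks. Endothelium markers overlapped at each time, at 690 to 815 against 612 to 789 CPM and 511 to 763 against 527 to 650 CPM. Fibroblast and pericyte markers were lower for 1 of 7 and 4 of 7, and their sums did not overlap at either time: 2640 to 3367 CPM in fl/fl against 1235 to 1526 CPM in PTKO at 3 weeks and 1224 to 2009 against 234 to 813 CPM at 6 weeks. Dendritic cell markers, from the cells known to make Ccl17 and Ccl22, summed to 354 to 546 against 143 to 329 CPM at 3 weeks. At 6 weeks their sums were 201 to 408 against 58.6 to 161 CPM, again without overlap. These 10 markers include the family members Xcr1 and Ccr7, so their sums are not separate from the chemokine values. None of the 10 macrophage markers was at 0 in all libraries. Ptprc differed by -0.53 and -1.14 at the 2 times (adjusted p = 0.296 and 0.0311), and 8 and 3 of the 16 receptors had a lower difference than Ptprc. The part of these cells in the chemokine differences was not tested.

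The test of the difference itself, the genotype by AAI interaction, was called for no member by limma. It called 0 of 49 at 3 weeks and at 6 weeks (all-gene shares of 0.164% higher and 0.116% lower, and 0.0274% and 0.0411%), with 14 and 17 members at an unadjusted p under 0.05. edgeR called 0 at each time, while DESeq2 called 6 at 3 weeks (Ccl6, Ccl9, Ccr1, Cxcl11, Cxcl16 and Cxcr2) and 1 at 6 weeks (Ccr1). The estimates nearest to the threshold at 3 weeks were Cxcl11 (2.66 ± 0.56, adjusted p = 0.0517), Ccl9 (-1.99 ± 0.43, adjusted p = 0.0525), Ccr1 (-1.83 ± 0.40, adjusted p = 0.0549) and Ccl6 (-1.94 ± 0.44, adjusted p = 0.0594), and at 6 weeks Ccr1 (-2.01 ± 0.40, adjusted p = 0.0899). Without fl/fl 3-week replicate 1 or without PTKO 3-week replicate 1, all 4 of the 3-week estimates were called, with adjusted p-values of 0.0430, 0.0393, 0.0450 and 0.0479 in the first case and 0.0242, 0.0189, 0.0189 and 0.0135 in the second. Cxcl11 was also called without PTKO 3-week replicate 3 (0.0171), and Ccr1 at 6 weeks without fl/fl 6-week replicate 2 (0.00915).

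Cxcl11 was higher in PTKO than in fl/fl under AAI. It is the third interferon-induced CXCR3 ligand, beside Cxcl9 and Cxcl10 on chromosome 5 (Cxcl11 at 92359544 to 92365485, minus strand, mm10), and the annotation types it as a polymorphic pseudogene. Its reads therefore do not show that a functional protein was made. In fl/fl it measured 0, 0.203 and 0.317 CPM under DMSO, 0.858, 0.703 and 1.35 CPM at 3 weeks and 0.897, 0.768 and 1.39 CPM at 6 weeks. In PTKO it measured 0.3996, 0.241 and 0.377 CPM under DMSO, 29.4, 13.1 and 5.55 CPM at 3 weeks and 11.8, 13.8 and 5.88 CPM at 6 weeks. Every PTKO library under AAI was at least 4 times the highest fl/fl library of the same time, and the DMSO groups overlapped.

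The change of Cxcl11 under AAI was 3.40 ± 0.39 (adjusted p = 1.58e-06) and 3.03 ± 0.39 (adjusted p = 9.09e-06) in PTKO at 3 and 6 weeks. In fl/fl it was 0.74 ± 0.39 (adjusted p = 0.0958) and 0.78 ± 0.39 (adjusted p = 0.0840), which a pseudocount of 0.1, DESeq2 and a fit of the compared groups alone did call. Between genotypes it differed by 2.85 ± 0.39 (adjusted p = 0.00150) at 3 weeks and 2.45 ± 0.39 (adjusted p = 0.00183) at 6 weeks, and under DMSO by 0.20 ± 0.39 (adjusted p = 1). By signed log2 difference, from the most raised in PTKO downward, it ranked 10 and 6 of 14604 genes at 3 and 6 weeks. By the limma p-value, in either direction, it ranked 19 and 99. It was the only member called higher in PTKO at either AAI time.

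Cxcl11 overlaps Art3 and Gm2673 on the opposite strand, and the strand setting of the counting is not given in the sources used here. Art3 was 3.53 CPM on average in fl/fl and 3.68 CPM in PTKO at 3 weeks, and 2.27 against 4.85 CPM at 6 weeks, where it was called higher in PTKO (0.82, adjusted p = 0.00777). Of the 21 tested genes within 1 Mb, counted after the values of Cxcl11 were seen and with it included, 0, 4 and 4 differed between genotypes under DMSO, at 3 weeks and at 6 weeks. Besides Cxcl11 these were Parm1 (higher), Naaa and Scarb2 (lower) at 3 weeks, and Art3 (higher), Naaa and Thap6 (lower) at 6 weeks. Cxcl9 and Cxcl10, the nearest members, were not among them.

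**Figure D5:**
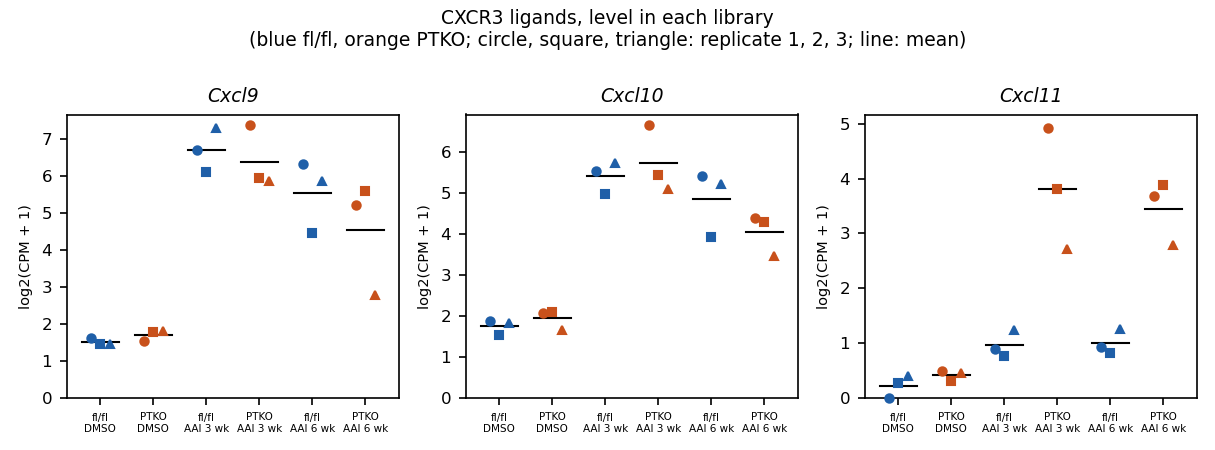
Each panel is 1 ligand of CXCR3, the y axis is log2(CPM + 1), blue points are fl/fl and orange points PTKO libraries, marker shapes give the replicate and lines are group means. Cxcl9 and Cxcl10 are raised by AAI in both genotypes with overlapping libraries, whereas Cxcl11 is above 5 CPM in all 6 PTKO libraries under AAI and at most 1.39 CPM in every other library.

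Genes around the family moved with it. By the same test, 53.7% to 59.8% of all genes were higher in the AAI comparisons. Lower in PTKO were 8% of all genes at 3 weeks and 11.8% at 6 weeks. The list counts below were made in the main fit only, not under other scalings. Of 20 genes of chemokine receptor signalling in leukocytes, 20 rose under AAI in each genotype at each time, and 12 were lower in PTKO than in fl/fl at 3 weeks and 12 at 6 weeks. Among them Lyn, a Src-family kinase, differed by -0.84 at 3 weeks (adjusted p = 0.00854) and Grk6, which switches receptors off, by -0.47 at 3 weeks and -0.46 at 6 weeks. Of 17 listed inducers and their receptors, 14 passed the filter on low values and were tested. All 14 rose in each AAI comparison, and 7 were lower in PTKO at 3 weeks and 5 at 6 weeks. Tnfrsf1b, a TNF receptor of leukocytes, differed by -1.24 (adjusted p = 0.0135) and -1.51 (adjusted p = 0.00506). Ifngr1 was lower at both times as well (-0.72 and -0.67). Of the 7 tested chemokines and atypical receptors outside the naming rule, 6 rose in fl/fl at 3 weeks and 2 were lower in PTKO at each time. These 2 were Pf4, a platelet and macrophage chemokine (-1.21 and -0.73), and Cmklr1, the chemerin receptor (-0.93 and -0.74).

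The 9 members not tested were scarce in every library. Cxcl15, a lung ligand, and Ccl26, an eotaxin, had 1 read each over the 18 libraries together, and Ccl27b, Ccl21a, Ccl21b and Ccl21c had 0, which allows up to 0.110 to 0.256 CPM in a library for counting error only. The Ccl21 genes are near-identical copies, so reads from them may have been dropped or placed elsewhere. Ccr3, the eotaxin receptor of eosinophils, had 153 reads in all and did not exceed 1.23 CPM. Cxcr1, another ELR receptor, had 41 reads and Ccr1l1, a relative of Ccr1 with no settled role, had 11.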

How the data were processed

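RNA was sequenced from mouse kidney cortex, and the labels place the 18 libraries in 6 groups. The deposited matrix holds CPM for 24062 genes. The authors' values came from libraries made with a stranded total RNA kit, per the labels' protocols, and the submitters' processing notes name bcl2fastq 2.19, kallisto and mm10. The strand setting of the counting is not given in the sources used here. Whole reads were recovered from the CPM for 100% of 433116 values, within 0.01 read.

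A gene needed 1 CPM or more in 3 or more libraries and was tested with limma 3.58.1 (R 4.3.3) on log2(CPM + 1), with the 6 group means over all 18 libraries and Benjamini-Hochberg adjustment over all 14604 genes tested, and a call needed an adjusted p under 0.05. In 12 comparisons, edgeR 4.0.16 and DESeq2 1.42.0 on recovered reads, other scalings, filters and pseudocounts, a replicate block and leaving out libraries were alternatives. The edgeR count test called 5270 genes higher and 5091 lower in fl/fl at 3 weeks of AAI, and 1128 higher and 836 lower between genotypes at that time. Scripts were tested on simulated data. Values per library are given for members with a group mean of at least 5 CPM or a call between genotypes or times, and the other members by their range. One receptor is counted in the totals but is not reported here or drawn. Of each pathway list at most 5 called genes were named, by smallest adjusted p. Positions are from GENCODE and promoters from RefSeq GRCm38.p6. Plots used matplotlib 3.10.9. The members and lists were chosen with earlier results of these data known.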

Additional observations from a re-analysis of the deposited data

How the results depend on the processing

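Limits. Each group has 3 libraries, and single libraries decide most genotype and time counts. At 11722625 to 27213219 reads, 0 reads in a library allow 0.110 to 0.256 CPM. The replicate numbers did not pair the libraries (correlations of same-numbered deviations from -0.37 to 0.49, with 0 of 15 pairs of groups above 0.1 throughout, and 5 of 18 libraries closest to their own number). With the replicate number as a block, 1 member was higher at 6 than at 3 weeks in fl/fl. The causes of the changes listed here were not tested.

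Falls under AAI in fl/fl numbered 4 at 3 weeks with quantile normalization, and at 6 weeks 3 with quantile normalization, 2 with median-of-ratios scaling and 1 with only the groups compared, edgeR or DESeq2. In PTKO they numbered 5 at 3 weeks with quantile normalization, and at 6 weeks 3 with median-of-ratios scaling, quantile normalization or DESeq2 and 2 with only the groups compared or edgeR. Leaving out 1 library gave 0 to 1 falls in fl/fl and 0 to 2 in PTKO at 6 weeks.

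Between genotypes, 7 members were lower at 3 weeks with only the groups compared. At 6 weeks 8 were lower with quantile normalization, 0 with only the groups compared and 7 with edgeR. Without the 3 libraries that stood apart (PTKO DMSO replicate 2, PTKO 6-week replicate 2 and fl/fl 6-week replicate 2), 26 were lower. That choice drops the fl/fl library lowest for 39 of 49 members and the PTKO library highest for 35. It keeps PTKO 6-week replicate 3, lowest for 41, so for most members it moves PTKO at 6 weeks further below fl/fl. Leaving out 1 library gave 1 to 2 higher and 3 to 18 lower at 3 weeks, and 3 to 23 lower at 6 weeks.

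Between times in fl/fl, 1 member was higher with edgeR, median-of-ratios scaling, a filter at 5 CPM or none, or a pseudocount of 0.1, and 0 with only the groups compared or without the 3 libraries. Lower calls numbered 4 with a pseudocount of 0.1 or only the groups compared and 2 without the 3 libraries. Leaving out 1 library gave 0 to 3 higher and 2 to 8 lower. In PTKO 1 was higher with quantile normalization or only the groups compared. Lower calls there numbered 5 with a pseudocount of 0.1 or quantile normalization, 4 with no filter, median-of-ratios scaling or edgeR, 1 with only the groups compared and 15 without the 3 libraries, and 0 to 12 with 1 library left out.

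For the interaction at 3 weeks, 1 member was higher with only the groups compared or DESeq2, and lower calls numbered 3 with quantile normalization or only the groups compared, 5 with DESeq2 and 4 without the 3 libraries. At 6 weeks 1 was lower with DESeq2 and 2 without the 3 libraries. Leaving out 1 library gave 0 to 1 higher and 0 to 6 lower at 3 weeks, and 0 to 4 lower at 6 weeks.

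Direction changed in genotype differences at 3 weeks that were not called. Cxcr3 became 0.0447 with quantile normalization, 0.0599 with edgeR and 0.0381 with DESeq2. With 1 library left out, Cxcr3 ranged from -0.44 to 0.24, Ccl5 from -0.59 to 0.37, Cxcl10 from -0.15 to 0.63 and Cxcr6 from -0.56 to 0.49.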
